A study of Mus musculus with 4 samples.

Results

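C1q high tumour macrophages were the barcodes that carried the complement C1q transcripts at a high level together with the macrophage receptor Csf1r. A barcode was a member when C1qa, C1qb and C1qc summed to at least 10 unique molecular identifiers (UMIs) per 10000 UMIs of that cell, when Csf1r was detected, and when Cd3e, Cxcr2 and Flt3, which mark T cells, neutrophils and dendritic cells, were at 0. Over the 4 libraries 12524 of 51841 barcodes met the rule, among 55090 deposited barcodes. The members were thus chosen by measured levels of these genes, so the C1q genes, and every gene in the contrast of these cells with other cells, are given only as descriptions of what was chosen.

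The cells came from subcutaneous tumours of KPC cells, a mouse pancreatic cancer line, in syngeneic C57BL/6 mice of 8 to 10 weeks. Untreated mice were compared with mice given ADU-S100, an agonist of the innate immune sensor STING, once into the tumour at 2 µg. Other mice received anti-LTβR, an antibody that activates the lymphotoxin β receptor, by 4 intraperitoneal injections of 100 µg, and the combination group received both agents. Tumours were taken at day 14, 10 tumours were pooled in each group and live CD45+ leukocytes were sorted, so each group had 1 library, and no spread between animals could be measured. The question the design poses is how each agonist, alone and on top of the other, shifted the leukocytes of the tumour 2 weeks after treatment.

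C1q is the recognition part of the classical complement pathway. Tissue macrophages are a main source of its A, B and C chains, which are encoded by neighbouring genes. In tumours, C1q macrophages are commonly found beside monocyte-derived cells that have differentiated less far, and they are known for clearing dead cells, handling lipid, presenting antigen on MHC class II and releasing chemokines. STING signalling is known for inducing type I interferon and NF-κB target genes, and the lymphotoxin β receptor for NF-κB signalling in stroma and myeloid cells.

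The promoters of C1qb and C1qc are shown because these genes set membership. The windows run from 250 bases before to 50 bases after the start of the gene in RefSeq, both lie on the minus strand of GRCm38.p6 and are written 5′ to 3′ along the gene, C1qb at chr4:136886151-136886450 and C1qc at chr4:136892865-136893164. Capitals mark the 2 motifs found of 4 searched on both strands, the ETS core AGGAAGT (bound by the macrophage factor PU.1 and its relatives, read here on the other strand as ACTTCCT) and the Maf site TGCTGA.
C1qb: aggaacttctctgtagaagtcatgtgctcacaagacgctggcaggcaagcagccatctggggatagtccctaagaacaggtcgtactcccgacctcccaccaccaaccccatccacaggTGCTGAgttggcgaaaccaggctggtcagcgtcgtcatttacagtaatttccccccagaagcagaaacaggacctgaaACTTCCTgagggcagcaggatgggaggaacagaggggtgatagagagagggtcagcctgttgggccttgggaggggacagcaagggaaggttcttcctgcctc
C1qc: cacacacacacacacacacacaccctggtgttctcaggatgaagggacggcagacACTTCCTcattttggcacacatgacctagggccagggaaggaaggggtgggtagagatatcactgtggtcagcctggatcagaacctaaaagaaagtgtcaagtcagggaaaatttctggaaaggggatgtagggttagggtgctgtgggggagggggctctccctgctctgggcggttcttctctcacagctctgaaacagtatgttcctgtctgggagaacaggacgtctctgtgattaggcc
The ETS core began 53 bases before the start of C1qb and 195 bases before that of C1qc, and the Maf site began 131 bases before the start of C1qb. Of 32851 mouse promoters of 300 bases, 9.35% held the ETS core and 19.5% the Maf site, so neither match is rare. The core of the interferon-stimulated response element, present in 3.44% of promoters, and the NF-κB core, present in 5.56%, were in neither window. Of the 6 genes that name these cells, 4 had a promoter in the table.

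The libraries differed in depth, which bears on the comparisons that follow. The number of barcodes within the limits was 7776, 14326, 14041 and 15698 in the order untreated, ADU-S100, anti-LTβR, combination, and the median UMIs per C1q high macrophage were 8696.5, 9131, 6226 and 4237. Between 34 and 83 barcodes were shared by any pair of libraries, and at most 4 were members in both. T cells (Cd3e detected, no Csf1r), which should lack C1q, were used to gauge RNA from other cells. Of these T cells 1.48, 0.413, 1.43 and 3.91% passed the C1q limit, at median depths of 4014, 4240, 3342.5 and 2086 UMIs. Of neutrophils (Cxcr2 detected, no Csf1r) 4.06, 2.48, 2.33 and 10.1% passed it, at median depths of 2114, 2531, 1876 and 1157 UMIs. In the combination library 18 of the 37 T cells and 54 of the 74 neutrophils that passed held under 3 C1q UMIs. Free RNA and doublets were not told apart. All gene levels below are CPM, the UMIs of a gene summed over the members of a library and scaled to a common total, and the order of libraries is the same throughout. Intervals are 95% and cover counting error only. A gene is called higher or lower when its CPM differed by at least 1.5-fold and the 2 libraries together held at least 200 of its UMIs, which is a rule of size and not a test.

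The rule fixed the C1q genes to be high in these cells. C1qa measured 3301, 3058, 2507 and 2742 CPM, C1qb 3461, 3373, 2794 and 2931 CPM, and C1qc 2741, 2574, 2257 and 2371 CPM, against at most 66.0 CPM of any C1q gene in T cells. Apoe, the lipid carrier of macrophages, stood at 7116, 6488, 5559 and 6438 CPM, with 47.7, 45.0, 55.3 and 115 CPM in T cells. Lyz2, Cd68, Adgre1, Fcgr1, Mertk and Itgam, the lysozyme, lysosomal, adhesion and receptor genes used to recognise macrophages, were all detected in every library, from 176 CPM for Adgre1 with the combination to 4515 CPM for Lyz2 with anti-LTβR. Ms4a7 measured 438, 469.6, 346 and 199.9 CPM and Vcam1, an adhesion molecule, 139, 161, 168 and 115 CPM. Apoe, Ms4a7 and Vcam1, which the rule did not use, were detected in each library, and Ms4a7 was lowest in the combination.

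Defining markers of other cells were low or at 0, with 2 exceptions. The 10 T cell markers summed to 23.8, 10.6, 35.1 and 35.6 CPM in C1q high macrophages against at least 5502 CPM in T cells, the 7 NK cell markers to between 8.95 and 28.6 CPM, the 10 dendritic cell markers to between 27.5 and 66.3 CPM and the 6 mast cell and basophil markers to at most 0.958 CPM. The 7 carcinoma markers gave 32.5 to 58.0 CPM, most of it Cdh1, and the 8 fibroblast and endothelium markers 54.3 to 71.2 CPM, most of it Pecam1. Cd3e, Flt3 and Cxcr2 were at 0 by the rule, and the carcinoma marker Cldn4 was at 0 in every library. Neutrophil markers (12 genes) summed to 79.0, 434, 137 and 180 CPM, and in T cells to 69.4, 1893, 301 and 1074 CPM. B and plasma cell markers (9 genes, led by Ighm and Igkc) summed to 324, 596, 1856 and 2872 CPM, and in T cells to 416, 120, 1657 and 4204 CPM. Both lists differed between the libraries in macrophages and in T cells, so counts of called genes were also taken without the members that carried such markers. Without members holding 2 or more neutrophil UMIs, 717 of the 947 genes called with ADU-S100, 310 of 393 with anti-LTβR and 505 of 587 with the combination were called again.

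The C1q high macrophages were set against the other Csf1r+ cells of the same tumours (C1q low cells, 9559 barcodes under the limit). As the rule used this contrast, the values only describe the cells. Of 8275 genes compared, 159 were at least 2-fold higher in all 4 libraries and 113 at least 2-fold lower. Apart from C1q, the leading genes were the chemokine Ccl8 (log2 ratio 4.68 to 5.33), the cholesterol hydroxylase Ch25h (3.52 to 4.75), Tlr12, the folate receptor Folr2, the platelet factor Pf4 (3.11 to 3.44) and Apoe (3.06 to 3.34). Lower genes included Serpinb2, the proteoglycan Vcan (-3.62 to -2.69), haptoglobin Hp and Plac8, genes known from circulating myeloid cells. Il1b was also lower in C1q high than in C1q low cells, at log2 ratios between -0.50 and -0.78. At the limit itself the step was small. Apoe measured 1385, 1889.5, 1449 and 1231 CPM in the 36, 64, 98 and 87 members with 10 to 12 C1q UMIs per 10000, and 1935, 1187, 1045 and 859 CPM in the 38, 52, 95 and 108 cells just outside, with 8 to 10, so it was higher inside the limit in 3 of 4 libraries.

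C1q level was a gradient within the members. The median C1q level was 86.1, 72.4, 64.5 and 69.8 UMIs per 10000, and 39.3, 34.8, 24.7 and 28.7% of members reached 100 per 10000. By both measures the untreated library was highest and the anti-LTβR library lowest, whereas at 200 per 10000 the ADU-S100 library had the largest share (2.94% against 1.70% in untreated). Along the gradient several genes differed the same way in each library. From the lowest to the highest tertile of C1q level, Apoe was higher by log2 1.68 to 2.27, Ms4a7 by 1.72 to 2.35, Ccl8 by 2.46 to 3.72 and Folr2 by 1.35 to 3.75, whereas Ly6c2, the surface marker of inflammatory monocytes, was lower (-2.94 to -3.72), as were Plac8, Vcan, the chemokine receptor Ccr2 and Gpnmb. Not every resident gene followed C1q. Mrc1 was level along the gradient in the untreated library (0.03), and Cd163 was lower at the high end there (3.01 against 6.77 CPM).

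**Figure D1:**
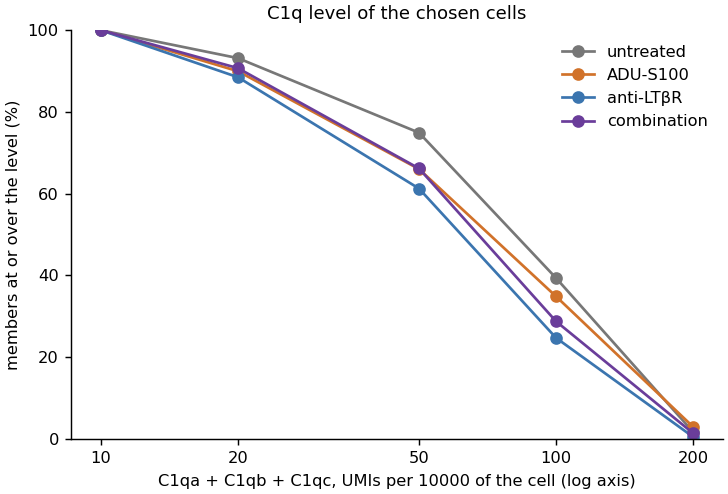
Percent of C1q high macrophages (vertical axis) whose summed C1qa, C1qb and C1qc reached a given level in UMIs per 10000 (horizontal log axis), 1 line per library. At 100 per 10000 the lines stand at 39.3, 34.8, 24.7 and 28.7%.

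C1q high macrophages took a smaller share of the sorted leukocytes in every treated library as deposited, but the size of the difference, and for the combination its direction, depended on the processing. In the order of libraries given above they made up 29.6, 19.7, 24.4 and 25.3% of barcodes. Set against untreated tumours, the share with ADU-S100 was 0.666 times as large (interval 0.635 to 0.698), the share with the antibody 0.825 times (0.789 to 0.863) and that with both agents 0.857 times (0.820 to 0.895). When barcodes with a Cxcr2 UMI or with 50 or more UMIs of S100a8 and S100a9 per 10000 were left out as neutrophils, 7254, 8820, 12783 and 14021 barcodes were left, 2295, 2753, 3408 and 3934 of them members. The shares were 31.6, 31.2, 26.7 and 28.1%, and the ADU-S100 ratio was 0.987. When barcodes under 2000 UMIs were left out and the remaining 6141, 10206, 10458 and 8570 were thinned to 2000 UMIs before the rule was applied, the shares were 27.9, 20.7, 24.7 and 31.7%, and the combination stood above untreated with a ratio of 1.14. The part of each of these 2 steps was not separated.

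Among Csf1r+ cells alone, C1q high macrophages made up 66.3, 54.6, 52.0 and 58.0%, each with an interval of no more than 1.6 points either way. Here the ratios to untreated were 0.823, 0.784 and 0.875, each below 1. The combination held more than either agonist alone, at 1.06 (1.03 to 1.10) of the ADU-S100 share and 1.12 (1.08 to 1.15) of the anti-LTβR share. No other processing was tried for these shares. The combination library was the shallowest and had the largest shares of T cells and neutrophils past the C1q limit, at 3.91 and 10.1%. The bearing of this on the ratios was not tested. Leaving out members with 2 or more UMIs of T, NK, B and plasma, dendritic, carcinoma or stromal markers lowered the share of all barcodes to 18.7, 13.8, 13.4 and 12.3%. In that setting the combination library lost the most members, and it is also the library with the most immunoglobulin RNA. The shares of all barcodes with the combination and with anti-LTβR alone did not differ beyond counting error (ratio 1.04, 0.998 to 1.08), and no variation between mice could be set beside any of these differences.

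**Figure D2:**
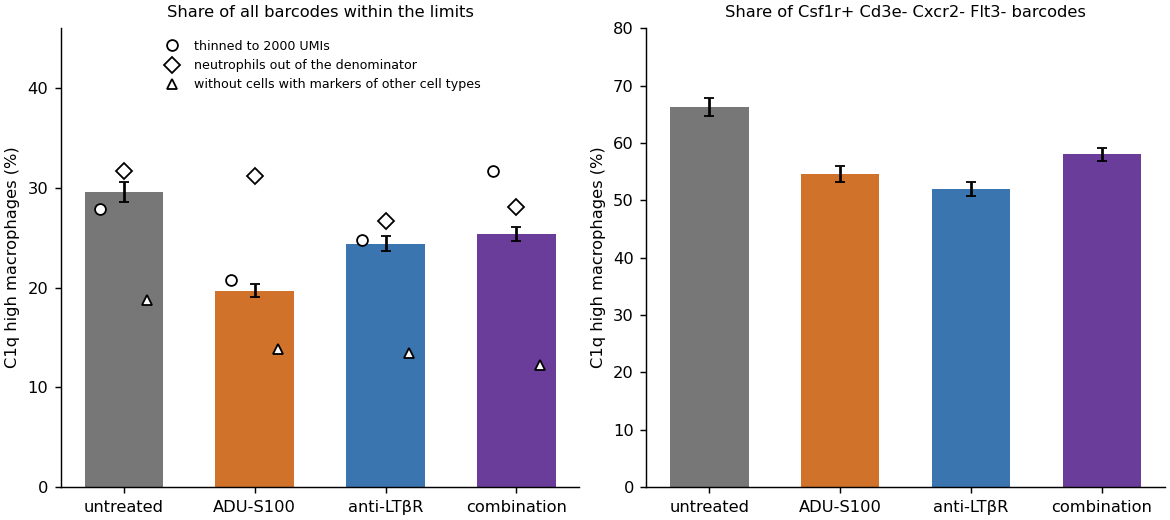
Percent of C1q high macrophages by library, of all barcodes within the limits (left) and of Csf1r+ Cd3e- Cxcr2- Flt3- barcodes (right); bars with exact 95% counting intervals. Open symbols on the left give the share with barcodes under 2000 UMIs left out and the rest thinned, without neutrophils in the denominator, and without members that carry markers of other cells, and show that the order of the libraries changes among these.

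ADU-S100 alone gave the largest number of gene differences in these cells, and among the gene lists the inflammatory genes stood higher and the cell cycle genes lower. Of 9785 genes compared 379 were called higher (3.87%) and 568 lower (5.8%), together 9.68%. The median gene was shifted by -0.15 on the log2 scale, and after centring on that median the split was 558 higher and 274 lower. Of the 21 measured genes of the inflammatory list 18 were called higher and 0 lower, with a median log2 ratio of 1.25 against -0.15 over all genes. Of the 21 measured cell cycle genes 14 were called lower and 0 higher, with a median of -0.75.

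Tnf, a central inflammatory cytokine, measured 64.0, 213, 81.1 and 64.6 CPM in C1q high macrophages. The ADU-S100 library stood alone, with a log2 ratio to untreated of 1.74 (1.65 to 1.82), and Tnf in T cells was 12.0, 40.6, 21.8 and 13.6 CPM. Il1b, which encodes interleukin 1β, measured 2600.2, 5808, 3872 and 4316 CPM, highest with ADU-S100 (1.16, 1.15 to 1.17) and above untreated in all treated libraries. Il1a measured 219.7, 538, 323 and 253 CPM, and was called only with ADU-S100 (1.29). Ptgs2, the inducible cyclooxygenase, measured 325, 925, 493 and 542 CPM, and Nlrp3, the inflammasome sensor, 275, 645, 401 and 480.5 CPM. Clec4e, a receptor for cell debris and fungal glycolipids, measured 105, 335, 127 and 129 CPM and showed the same single peak as Tnf. Il6 was low, at 10.7, 54.1, 49.1 and 29.6 CPM, and was called higher in all 3 treated libraries (2.34, 2.20 and 1.47). In the untreated library 17.5% of its UMIs lay in 1 cell.

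Some inhibitors, picked out after their values were seen, were called higher too, although of the 16 immunoregulatory genes 1 was called higher and 1 lower. Nfkbia, which holds NF-κB in the cytoplasm, measured 514, 1333, 694 and 751 CPM (1.37 with ADU-S100), with 584, 985, 548 and 593 CPM in T cells, and Il1rn, the antagonist of the interleukin 1 receptor, 356, 848, 598 and 510.1 CPM (1.25). Il10, an anti-inflammatory cytokine, measured 21.4, 63.2, 24.0 and 21.3 CPM (1.56, 1.41 to 1.72), with 34.2, 27.5, 38.2 and 26.0 CPM in T cells. Of 21 chemokines 7 were called higher and 1 lower with ADU-S100 (median 0.15). Cxcl2, a ligand of the neutrophil receptor Cxcr2, measured 1471, 5182, 2337 and 2661 CPM (1.82 with ADU-S100), against 88.9, 1496, 170.0 and 570.5 CPM in T cells. Cxcl3 measured 32.8, 259.7, 76.8 and 75.5 CPM (2.99). The inflammatory chemokines Ccl3 and Ccl4 were called higher (1.00 and 0.64), but T cells held more of both than the macrophages did, Ccl3 in 4 and Ccl4 in 3 of 4 libraries.

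Neutrophil RNA moved with this programme, and T cells of the ADU-S100 library held more Il1b (136, 915, 266 and 553 CPM) and Clec4e (4.85, 97.9, 14.5 and 27.7 CPM) than those of the other libraries. When the members with 2 or more UMIs of neutrophil markers were left out, a choice made after the values were seen that kept 1961, 2065, 3051 and 3672 members, 18 of 21 inflammatory genes were called higher, with a median of 1.22. Tertiles were cut on the C1q level that the rule also used. Within the lowest tertile 18 of 20 genes of the list were called higher (median 1.37, with -0.17 over all genes). Within the highest tertile 13 of 19 were (median 0.88, with -0.08 over all genes). Among the 2156, 2634, 3085 and 3261 members with at least 2000 UMIs, thinned to that number, a cell held a median of 10, 25, 15 and 18 UMIs of the list, with 25% of cells at or under 5, 12, 6 and 9. Genes of tissue dissociation and heat shock were also counted, and 4 of 19, led by Hspa1a (1.17) and Hspa1b (1.13), were called higher with ADU-S100, as were 4 of 19 with anti-LTβR and 3 of 19 with the combination.

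The largest rises among widely detected genes were led by Inhba, which encodes the activin A subunit. It measured 69.9, 387, 195 and 154 CPM, with log2 ratios to untreated of 2.47 (2.39 to 2.55), 1.48 and 1.14, and 1.06, 51.6, 21.8 and 42.6 CPM in T cells. Ifitm1, an interferon-inducible membrane protein, measured 264, 1066, 858 and 567 CPM (2.01 with ADU-S100). Sgms2, a sphingomyelin synthase, measured 19.5, 98.1, 41.6 and 37.8 CPM, against 106 CPM in T cells of the ADU-S100 library, and Mir155hg, the host transcript of an inflammatory microRNA, 19.8, 95.6, 30.9 and 46.7 CPM, below its T cell level of at least 131 CPM. F3, tissue factor, measured 10.1, 35.6, 19.3 and 17.2 CPM. Hdc, the histamine-forming enzyme, measured 8.43, 35.1, 11.1 and 16.2 CPM, below its T cell level in every library, which reached 115 CPM with ADU-S100. The part of free RNA in these rises was not tested.

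Cells holding an Inhba UMI had more of other inflammatory transcripts. After thinning, 4.96, 20.2, 11.1 and 10.2% of members held one, against 0.110, 4.63, 1.44 and 3.55% of T cells, and without thinning 9.57, 30.7, 16.8 and 14.3%. In each of the 4 libraries the carriers exceeded the other members in Cxcl3 (log2 2.73 to 3.86), Spp1 (0.87 to 1.56), Il1a (0.86 to 1.72) and Ptgs2 (0.92 to 1.29), and lay below them in Ms4a7 (-0.69 to -1.01) and C1qa (-0.45 to -0.76). The carriers were picked out after these genes had been seen, and they were deeper than other members (medians of 11440.5 against 8358.5 UMIs in the untreated library).

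On the falling side, Gbp2b, an interferon-induced GTPase, measured 68.0, 21.4, 35.9 and 46.5 CPM, with a log2 ratio of -1.67 for ADU-S100. Plxdc2, a plexin domain receptor, measured 159, 51.2, 167 and 269 CPM and fell by 1.63 on the log2 scale with ADU-S100, while the combination was 0.76 above untreated. Batf3, a transcription factor, measured 37.1, 16.1, 32.2 and 34.4 CPM, and Pdgfc, a growth factor, 77.9, 35.6, 55.7 and 62.4 CPM. The level of Batf3 with the combination lay within 1.1-fold of untreated. Cp, Zfp810 and the transcript Plxna4os1 were also among the largest falls. Top2a, the DNA topoisomerase of dividing cells, measured 67.8, 35.8, 56.7 and 75.1 CPM (-0.92 with ADU-S100) and Mki67 81.0, 56.1, 67.4 and 82.0 CPM (-0.53, under the fold). The share of thinned members with at least 2 UMIs of the cycling genes was 6.96, 4.25, 4.80 and 6.16%. Without thinning it was 17.8, 12.9, 11.0 and 9.33%, with the lowest share in the shallowest library. Within the highest C1q tertile 0 of 19 cell cycle genes were called (median -0.40), and within the lowest tertile 4 of 9 were called lower.

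The list of interferon-stimulated genes, which does not hold Ifitm1, had no member called higher. Of its 35 genes 0 were called higher in any comparison with untreated, and 5, 2 and 7 were called lower with ADU-S100, anti-LTβR and the combination, with medians of -0.32, -0.16 and -0.34. Over all genes 5.8, 0.982 and 2.3% were called lower, with medians of -0.15, -0.00 and -0.08. Isg15 measured 372, 378, 366 and 361 CPM, a spread of less than 1.1-fold. Ifit3 measured 52.5, 27.4, 28.9 and 29.5 CPM and was lower in all treated libraries (-0.93, -0.86 and -0.83), though it shares sequence with Ifit3b and reads may have been split between them. Of 18 interferon γ genes 2, 1 and 1 were called lower with the 3 treatments (medians -0.20, -0.20 and -0.30) and 1 was called higher in each treated library, which was Nos2, the inducible nitric oxide synthase, at 116, 241, 243 and 189 CPM. Cxcl9, which attracts T cells, measured 906, 759, 649 and 721 CPM and Cxcl10 309, 314, 283 and 251 CPM, none past the fold. The targets of both agents were detected and under the fold, Sting1 at 93.9, 80.4, 87.3 and 88.6 CPM and Ltbr at 44.3, 39.4, 48.0 and 40.7 CPM. Of the wider STING, LTβR and NF-κB list 0 of 16 genes were called with either single agent and 3 of 17 higher with the combination, which were Traf3, Nfkb1 and Ltb, the last abundant in T cells.

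**Figure D3:**
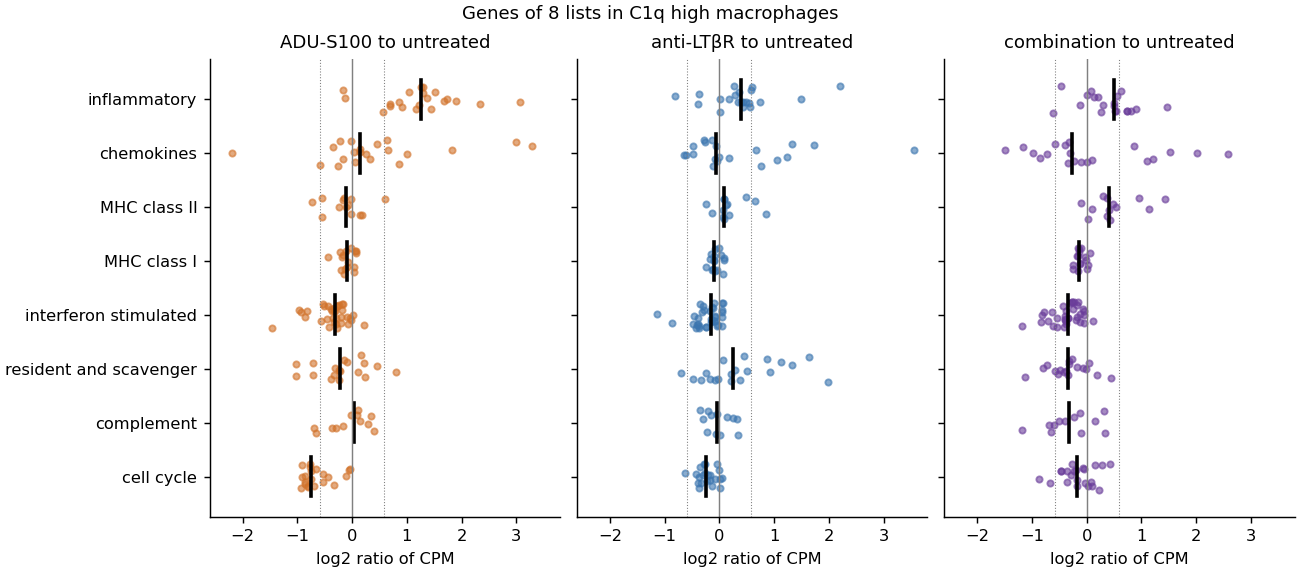
Log2 ratio to untreated (horizontal axis) of each measured gene of 8 lists in C1q high macrophages, 1 panel per treatment. Points are genes, black bars the list medians and dotted lines the 1.5-fold limits; the inflammatory median is at 1.25, 0.40 and 0.50 and the MHC class II median at -0.11, 0.09 and 0.41.

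Anti-LTβR alone gave fewer differences, and some chemokine, resident and scavenger genes were among those called higher. Of 9878 genes 296 were called higher (3%) and 97 lower (0.982%), together 3.98%, and the median gene was unshifted (-0.00). Without members carrying markers of other cells 237 genes were called, and 180 of the 393 were among them. Of 20 measured resident and scavenger genes 6 were called higher and 1 lower (median 0.25), and of 20 chemokines 7 higher and 2 lower. The inflammatory list was called higher for 4 of 21 genes and lower for 1 (median 0.40).

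Cd163, the haemoglobin scavenger receptor, measured 4.79, 3.26, 19.0 and 4.56 CPM, 1.98 (1.67 to 2.32) higher on the log2 scale with the antibody. Cbr2, a carbonyl reductase of resident macrophages, measured 40.3 CPM with the antibody, 6.36 CPM with ADU-S100 and 12.9 CPM with the combination (1.63 for the antibody against untreated), Igf1, a growth factor, 22.1, 18.6, 55.6 and 17.7 CPM (1.33) and Gas6, the bridging ligand for engulfing dead cells, 38.6, 36.2, 73.1 and 28.8 CPM (0.92). In each of these the anti-LTβR library was the highest by a wide margin and the combination library was at or below untreated. T cells had at most 2.13 CPM of any of them. Ccl8 measured 395, 351, 673 and 335 CPM (0.77) and Ccl24, an attractant of eosinophils, 10.0, 15.8, 118 and 28.7 CPM (3.55), of which 9.92% lay in 1 cell of the anti-LTβR library. Mrc1, the mannose receptor, was abundant, at 1019, 818, 1180.1 and 813 CPM, with no comparison with untreated past the fold, and the sialic acid receptor Siglec1, at 74.3, 45.2, 45.9 and 42.5 CPM, was called lower in all 3 treated libraries.

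Few cells carried Cd163. Thinned to 2000 UMIs, 0.510, 0.266, 2.14 and 0.429% of members held a Cd163 UMI (at most 0.110% of T cells in any library), and without thinning these were 28, 20, 117 and 37 cells. In all 4 libraries they had more Lyve1 (log2 4.78 to 6.86), Cbr2 (3.88 to 5.18), Folr2 (3.15 to 3.76), Gas6 (2.70 to 3.57) and Igf1 (2.46 to 5.34) than the remaining members, at a C1qa level that differed by at most 0.16. Ccl24 did not go one way with Cd163. Cells with Cd163 had more of it than other members in the untreated (3.98) and ADU-S100 (1.78) libraries, but not in the anti-LTβR (-1.27) and combination (-0.34) libraries. The share of members with a Ccl24 UMI was 0.928, 1.44, 5.93 and 1.99% after thinning (2.39, 2.84, 8.90 and 2.97% before), against at most 0.254% of T cells. By C1q level, 9 of 19 resident and scavenger genes were called higher with anti-LTβR in the highest tertile (median 0.52, with 0.04 over all genes). In the lowest tertile 1 was called higher and 4 lower of 16 (median -0.15, with -0.06 over all genes). Igf1 had a log2 ratio of 1.85 in the highest tertile and -0.01 in the lowest. The difference between the tertiles was not tested.

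Beside these genes the naming rule gave P2ry10, a lysophospholipid receptor (10.8, 17.1, 28.9 and 40.7 CPM, with at least 210.3 CPM in T cells), Alpk2 (7.19, 16.8, 20.5 and 25.2 CPM), Ocstamp, a cell fusion protein of osteoclasts (16.6, 36.7, 43.6 and 38.3 CPM), the transcript Mir99ahg (29.3, 19.9, 67.5 and 26.3 CPM) and Mtmr7 (9.49, 19.3, 21.8 and 21.5 CPM). Mir99ahg followed Igf1 and Cd163, while Alpk2, Ocstamp and Mtmr7 were higher in all 3 treated libraries. The largest falls were smaller in size. Tmem171 measured 33.8, 41.1, 17.7 and 15.7 CPM (-0.93), Ckb, creatine kinase B, 135 CPM without treatment and 75.1 CPM with the antibody (-0.85) and Il15, a cytokine for NK and CD8 T cells, 54.7, 34.0, 30.7 and 30.1 CPM (-0.83). Tgtp2, 1 of the 8, has a near-identical copy and its counts are uncertain, and Rapgef5, Gbp2b and Ifit3 completed the list with Ptp4a1, a symbol that 2 features share.

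With the combination some MHC class II genes, Pgf and Dcstamp were higher, and the chemokines Ccl2, Ccl7 and Ccl12 were lower. Of 9650 genes 365 were called higher (3.78%) and 222 lower (2.3%), together 6.08%, or 444 and 121 after centring on the median of -0.08. Without members carrying markers of other cells 355 genes were called, and 280 of the 587 were among them. Of 13 MHC class II genes 3 were called higher and 0 lower, and 12 of 13 had a ratio above 0 (median 0.41). The inflammatory list was called higher for 6 of 20 genes and lower for 1 (median 0.50), the resident and scavenger list for 0 of 18 and lower for 3 (median -0.34), and the complement list without C1q for 0 of 12 and lower for 4 (median -0.32).

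Most class II genes were highest in the combination library, with Ctss (-0.10 against untreated) and Cd40 (-0.08 against ADU-S100) as exceptions. Cd74, the invariant chain, measured 15061, 13948, 15851 and 20296 CPM, and H2-Aa, an α chain of the class II dimer, 6126, 5795, 6403 and 8149.6 CPM. Both lay under the fold against untreated (0.43 and 0.41). H2-DMb2, a chain of the peptide exchange factor, measured 31.9, 21.7, 44.7 and 61.9 CPM (0.96, 0.82 to 1.09), and H2-Oa, a chain of its inhibitor, 5.41, 3.71, 8.47 and 14.7 CPM (1.43, 1.12 to 1.77). Cd80, a costimulatory ligand for T cells, measured 158, 240.2, 286 and 347 CPM (0.61, 0.86 and 1.13 in the 3 comparisons). Ciita, the master regulator of the class II genes, measured 187, 112, 204 and 229 CPM, so its lowest level was with ADU-S100 (-0.74). B cells also express class II, and their RNA was highest in this library. In T cells H2-Aa was 157, 92.2, 165 and 271 CPM. Members with 2 or more B and plasma cell UMIs were 19.0, 8.08, 30.4 and 43.2% of all, and without members carrying markers of other cells the class II median of the combination against untreated was 0.48. Per thinned cell the class II list gave a median of 77, 71, 84 and 104 UMIs, and its lowest 10% of cells reached 20, 14, 27 and 43. By C1q tertile, the class II median of the combination against untreated was 0.29 in the lowest and 0.49 in the highest, with -0.08 and -0.04 over all genes. MHC class I genes had 0 of 16 past the fold in each of the 5 comparisons.

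Among widely detected genes that passed the naming rule, the largest rise in the combination was that of Pgf, placental growth factor, at 24.3, 40.9, 51.8 and 95.6 CPM (1.97, 1.83 to 2.12). Dcstamp, which drives fusion of macrophages into giant cells and osteoclasts, measured 98.4, 77.0, 182 and 329 CPM (1.74, 1.67 to 1.81), with at most 11.9 CPM in T cells. Il1r2, the decoy receptor for interleukin 1, measured 400.4, 638, 732 and 990.4 CPM (1.31), with 169, 210.2, 215 and 231 CPM in T cells. Nrg1, a ligand of ERBB receptors, measured 199, 462, 325 and 473 CPM (1.25). P2ry10 (1.91), Gfod1 (23.1, 48.5, 50.6 and 58.6 CPM), Pxdc1 (25.6, 28.7, 41.8 and 63.6 CPM) and Tamalin (26.1, 48.6, 45.7 and 64.1 CPM) completed the 8. Pgf, P2ry10 and Il1r2 rose in each treated library and were highest in the combination, whereas Dcstamp was under its untreated level with ADU-S100.

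With the combination a larger share of members held a Dcstamp UMI, while the level per carrying cell was not measured. After thinning, 6.54, 6.53, 11.8 and 20.7% of members held a UMI, against 0.331, 0.231, 0.847 and 1.58% of T cells, and before thinning the shares were 9.65, 10.9, 17.0 and 24.8%. In every library these cells had more Qpct (log2 1.51 to 2.11), Il1r2 (1.20 to 1.77), H2-DMb2 (1.01 to 1.68) and Pgf (0.57 to 1.91) than other members and less Ccl7 (-1.17 to -1.84) and Ms4a7 (-0.84 to -1.44). Several genes that were higher or lower with the combination differed the same way between cells with and without Dcstamp, also in untreated tumours. Dcstamp and these genes were picked after their levels with the combination were known, so this is a description only. How many of all genes do so was not counted. Cells with Dcstamp were deeper than other members (medians of 11893 against 8279.5 UMIs in the untreated library and 5805 against 3779.5 with the combination).

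The genes that fell with the combination included chemokines and receptors. Ccl7 measured 557, 616, 461 and 197 CPM (-1.50, -1.55 to -1.44), Ccl2 525, 656, 431 and 235 CPM (-1.16) and Ccl12 592, 506, 541 and 299.9 CPM (-0.98), all ligands of the monocyte receptor Ccr2. Ch25h measured 61.3, 46.5, 43.2 and 18.1 CPM (-1.76), Cd93, a receptor linked to the uptake of dying cells, 117, 148, 91.6 and 51.6 CPM (-1.18) and Ms4a7 fell by 1.13. In all of these the combination was the lowest library, and for Ccl2, Ccl7, Cd93 and Ms4a7 the highest was ADU-S100 alone. Tgtp2, Ckb and Asah2 were the other members of the 8. Maf, a transcription factor of resident macrophages, measured 219.9, 172, 232 and 115 CPM (-0.94), and T cells had between 128 and 196 CPM of it. In the complement list the anaphylatoxin receptor C3ar1 (361, 321, 292 and 238 CPM), Itgam (633, 681, 541 and 391 CPM) and C4b (91.4, 58.0, 92.1 and 58.0 CPM) were called lower, while C3 (206, 252, 257 and 259 CPM) was not. In the highest and the lowest C1q tertile, Ccl7 (-1.46 and -1.39), Cd93 (-1.16 and -1.25) and Ms4a7 (-0.93 and -1.56) were lower.

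Chemokines did not move as 1 group. With the combination 6 of 20 were called higher and 6 lower. The risers were the neutrophil attractants Cxcl1, Cxcl2 and Cxcl3 and the ligands Ccl17, Ccl22 and Ccl24, and the others were Ccl2, Ccl7, Ccl12, Ccl5, Cxcl14 and Pf4. Ccl17, which binds Ccr4, measured 27.2, 5.88, 56.6 and 110.3 CPM, but 22.9, 29.3, 12.0 and 4.70% of its UMIs lay in 1 cell, and Ccl22 is also a dendritic cell marker.

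**Figure D4:**
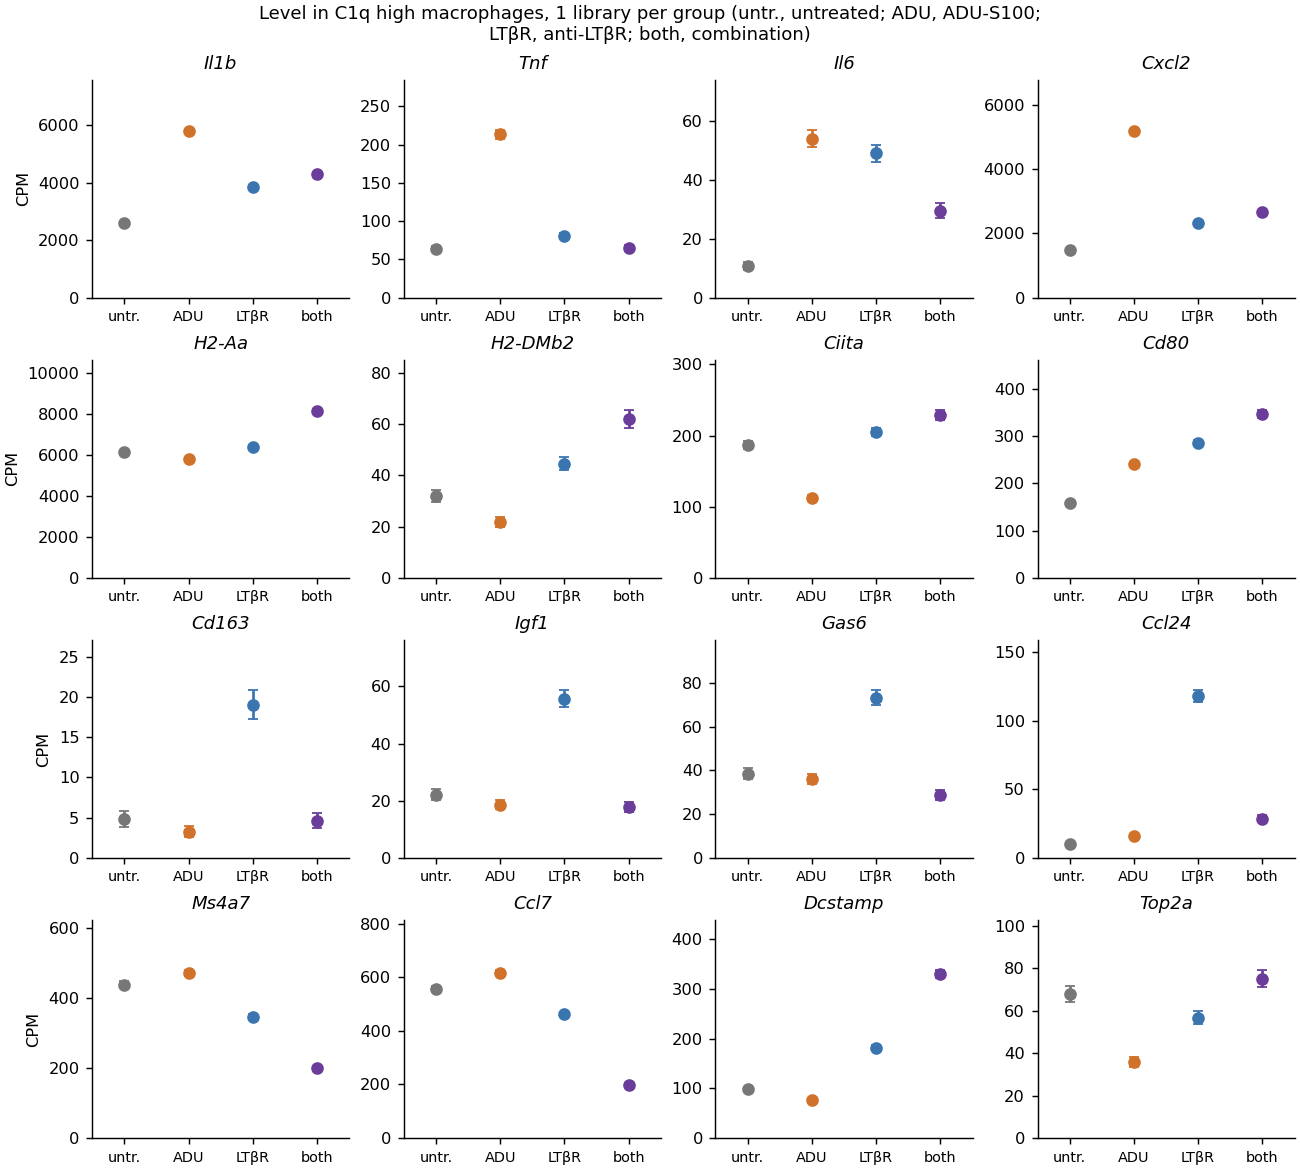
CPM (vertical axes from 0) of 16 genes in C1q high macrophages of the 4 libraries; points are library values and bars exact 95% Poisson intervals. The first row peaks with ADU-S100, the second with the combination and the third with anti-LTβR, and in the fourth Ms4a7 and Ccl7 are lowest and Dcstamp highest with the combination.

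Compared directly, the combination differed from ADU-S100 alone at 8.11% of 9740 genes, 511 higher (5.25%) and 279 lower (2.86%). The inflammatory list was lower at 12 of 21 genes and higher at 0 (median -0.77), MHC class II higher at 5 of 13 and lower at 0 (0.53), and the cell cycle list higher at 7 of 21 and lower at 0 (0.48). Tnf (log2 ratio -1.72) and Clec4e (-1.38) returned to about the untreated level, and Il1b (-0.43) did not pass the fold. Dusp2, a phosphatase of MAP kinases, measured 35.2, 122, 53.4 and 42.5 CPM (-1.52) and Gpr84, a fatty acid receptor, 11.4 CPM untreated, 24.4 CPM with ADU-S100 and 6.95 CPM with the combination (-1.81). Qpct, a glutaminyl cyclase, measured 17.6, 6.06, 19.1 and 35.1 CPM (2.53), Mgl2, a C-type lectin, 214, 108, 379 and 460.4 CPM (2.09) and Kynu, of tryptophan breakdown, 25.9, 15.9, 38.5 and 57.4 CPM (1.85). With Plxdc2 (2.39) and Dcstamp (2.09) these were the 5 largest rises under the naming rule, which leaves out genes detected in few cells such as Ccl17 (4.23). All 5 were below untreated with ADU-S100 alone and above it with the combination.

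Against anti-LTβR alone the combination differed at 3.05% of 9795 genes, 140 higher (1.43%) and 159 lower (1.62%). The resident and scavenger genes were lower at 10 of 20 and higher at 0 (median -0.65), led by Cd163 (-2.05), Igf1 (-1.65), Cbr2 (-1.64) and Gas6 (-1.35). Chemokines were lower at 6 of 20 and higher at 2. Of the inflammatory list 1 was higher and 2 lower (median 0.02). MHC class II was above 0 for 13 of 13 genes, with 1 past the fold (median 0.29). Etv1, a transcription factor, measured 15.8, 13.3, 27.9 and 9.28 CPM (-1.58). Pgf (0.89), Qpct (0.87), Dcstamp (0.85), Nr4a3 (167, 230.3, 198 and 345 CPM, 0.80, also at 209 to 354 CPM in T cells) and Zcchc14 (25.3, 19.3, 18.6 and 31.7 CPM, 0.77) rose the most under the naming rule. Listed genes found in fewer cells or with UMIs in few cells rose more, such as Il12b (1.72) and Ccl22 (1.24).

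ADU-S100 was thus given in 2 settings, without and with anti-LTβR, and these comparisons share no library. Among 9153 genes measured in both, without immunoglobulin, T cell receptor, mitochondrial, ribosomal, predicted, sex-linked and other-cell marker genes, 12 were called higher in both and 20 lower in both, whereas 20 were called higher without and lower with anti-LTβR and 13 the other way round. Il6 (2.34 without, -0.73 with), Ifitm1 (2.01 and -0.60), Gpr84 (1.10 and -0.90) and Gpnmb (1.22 and -0.67) were of the first kind, and Qpct (-1.54 and 0.87), Plxdc2 (-1.63 and 0.69) and Ccl17 (-2.21 and 0.96) of the second. With 1 library a group, the difference between these ratios could not be tested.

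**Figure D5:**
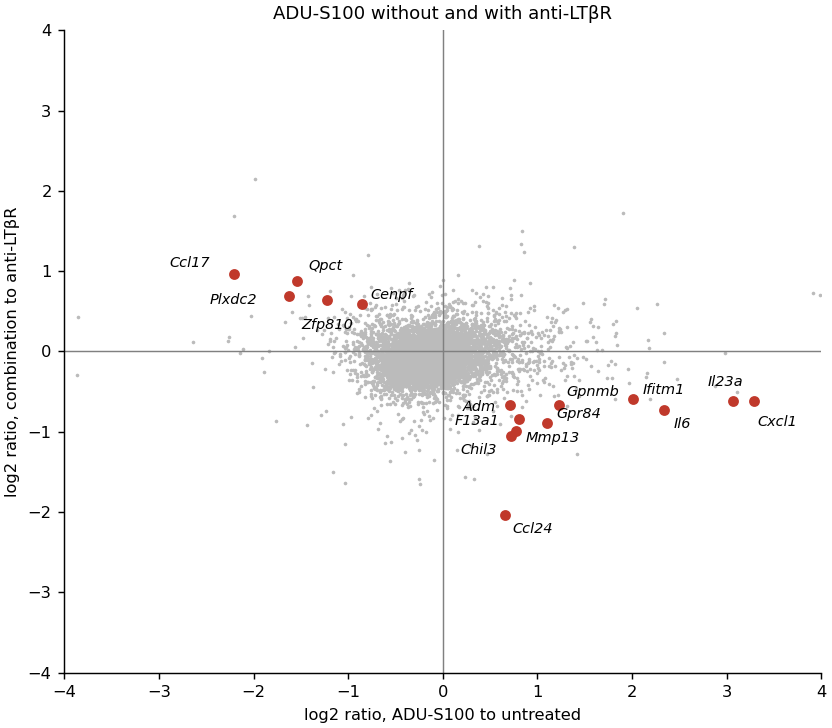
Log2 ratio of ADU-S100 to untreated (horizontal axis) against that of combination to anti-LTβR (vertical axis) for all 9606 genes with at least 200 UMIs in each pair, no kind of gene left out, 8 of them outside the axes. Red points are the named and listed genes at least 1.5-fold apart in opposite directions, 5 in the upper left and 11 in the lower right.

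Part of the treatment response was shared with the C1q low Csf1r+ cells. Of the 379 genes called higher with ADU-S100, 339 were also measured in C1q low cells and 257 were higher there by at least 1.5-fold, as 213 of 259 were lower. Over all 7850 genes measured in both cell sets, 5.02% were higher and 17.1% lower in C1q low cells. Tnf (2.21), Il1a (2.09) and Inhba (1.81) rose in C1q low cells as well. For anti-LTβR 108 of 226 higher genes and 25 of 41 lower genes were past the fold the same way, against 2.5% and 4.61% of all genes. For the combination the counts were 125 of 285 and 37 of 100, against 2.59% and 2.6%. Some genes did not pass the fold in the same direction. With the combination they included Cd93 (0.25 in C1q low cells), Ccl2 (-0.03) and Dcstamp (0.26), and with anti-LTβR Igf1 (-0.90). Gas6 held too few UMIs in C1q low cells to count as measured there, at 6.28 CPM untreated and 3.67 CPM with anti-LTβR. The difference between the 2 cell sets was not tested.

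The members held overlapping states, judged by at least 2 UMIs of short lists after thinning. MHC class II was found in 97.9, 94.4, 98.5 and 99.0% of members (99.0, 98.0, 99.3 and 99.2% without thinning). Gpnmb, Mmp12 and Spp1, genes of lipid-laden macrophages, marked 28.6, 40.3, 33.3 and 32.0% (44.1, 54.5, 42.7 and 40.6%). Folr2 and Mrc1 marked 46.4, 35.7, 44.6 and 37.0% (76.5, 62.6, 65.5 and 56.5%). This pair read mostly Mrc1, as Folr2 gave 20.6, 16.4, 28.4 and 14.4 CPM of the pair's 1039.85, 834, 1208 and 828 CPM. Monocyte genes marked 18.6, 23.6, 20.8 and 19.3% (30.4, 37.6, 32.0 and 25.9%), interferon genes 26.9% in untreated tumours and 22.8% or less in the treated ones (59.3, 53.4, 43.6 and 39.8%) and Cxcl9 with Cxcl10 34.3, 30.9, 28.8 and 31.5% (51.7, 47.1, 41.2 and 41.6%).

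The remaining lists differed in how many genes were called. Of 15 monocyte genes 6 were called higher and 1, Ly6c2, lower with ADU-S100 (median 0.39), 4 higher and 2 lower with anti-LTβR (0.21) and 2 higher with the combination (-0.00). Matrix and protease genes were called higher for 6 of 16 and lower for 1 with ADU-S100, growth factor genes higher for 4 of 15, 4 of 15 and 3 of 15 with the 3 treatments, and the transcription factors higher for 3, 3 and 2 of 18 and lower for 0, 0 and 2. Over all genes 3.87, 3 and 3.78% were called higher with the 3 treatments. Areg, an epidermal growth factor ligand, measured 11.5, 84.3, 56.2 and 41.8 CPM, although T cells had at least 176 CPM, and Klf4, a factor of monocyte differentiation, 168, 289, 310.1 and 322 CPM. Spp1, osteopontin, measured 632, 1290.2, 895 and 613 CPM and was called only with ADU-S100 (1.03). Of 16 immunoregulatory genes 1 was called higher and 1 lower with ADU-S100 and 0 with the other treatments, and of 8 Fc receptor genes 0 were called with either single agonist and 1 lower with the combination.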

How the data were processed

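Live CD45+ cells from 4 pooled groups of tumours were profiled by 5′ single-cell RNA sequencing. The UMI counts per gene and barcode are raw counts of 33696 features that the authors deposited as filtered matrices. The submitters' processing notes name Cell Ranger 7.1.0 and mm10, whereas the file headers name Cell Ranger 8.0.1, and the labels and the study's methods name different versions of the kit, so the version used is uncertain. An earlier experiment of the study was not analysed here.

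Barcodes with 300 to 5000 genes and at most 6% mitochondrial UMIs were kept, which left 51841 of 55090. Members were chosen by the rule stated at the start of the report. No clustering or doublet caller was run. Doublets were treated by requiring Cd3e, Cxcr2 and Flt3 at 0 and, as an alternative, by leaving out members with 2 or more UMIs of markers of other cells. UMIs were summed over members, 0.5 UMI was added before log2 ratios, and genes with at least 200 UMIs over both libraries were compared. Gene levels carry exact Poisson intervals, log2 ratios exact binomial intervals, shares Clopper-Pearson intervals and share ratios log-normal intervals, all 95%, and all cover counting error only. With 1 library per group there was no test. To compare shares across depths, members under 2000 UMIs (144, 187, 341 and 716) were left out and the rest thinned to that number. The calculation of ratios was tested on simulated data.

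Named genes were the 8 largest rises and the 8 largest falls against untreated, and the 5 largest each way for the combination against either agonist. They had to be detected in at least 10% of members of either library with no cell holding over 5% of the UMIs, and immunoglobulin, T cell receptor, mitochondrial, ribosomal, sex-linked, predicted and other-cell marker genes were left out. The 3 most abundant and the most changed genes of each of the 20 lists were added. Cxcl3, Il10, Ccl12, Cd93, Nfkbia and the other list genes outside this rule were chosen after their values were seen. So were the C1q tertiles, the cells carrying Cd163, Ccl24, Dcstamp or Inhba with the genes compared in them, and the alternative without neutrophil markers. The members and lists were chosen with earlier results of these data known. Python 3.11.15, numpy 2.4.6, scipy 1.17.1, pandas 2.3.3 and matplotlib 3.10.9 were used. Some genes that met these rules are not reported here.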

Additional observations from a re-analysis of the deposited data

Results flagged for a closer look

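Among the named and listed genes, 16 moved at least 1.5-fold one way when ADU-S100 was given alone and at least 1.5-fold the other way when it was given on top of anti-LTβR. Values are log2 ratios of ADU-S100 to untreated and of the combination to anti-LTβR, and the difference between them was not tested. Cytokine and chemokine genes that were higher without and lower with the antibody were Cxcl1 (3.28 and -0.62), Il23a (3.07 and -0.61), Il6 (2.34 and -0.73) and Ccl24 (0.66 and -2.04). Receptor and membrane genes of the same kind were Ifitm1 (2.01 and -0.60), Gpnmb (1.22 and -0.67) and Gpr84 (1.10 and -0.90). Adm (0.71 and -0.67), Chil3 (0.72 and -1.05), Mmp13 (0.77 and -0.99) and F13a1 (0.81 and -0.84) completed them. Lower without and higher with the antibody were Ccl17 (-2.21 and 0.96), Plxdc2 (-1.63 and 0.69), Qpct (-1.54 and 0.87), Zfp810 (-1.23 and 0.65) and Cenpf (-0.86 and 0.59). Single cells weigh on some of these. Of the Chil3 UMIs in the anti-LTβR library 44.4% lay in 1 cell, and of the untreated Ccl17 UMIs 22.9%.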

How the results depend on the processing

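No paired analysis was possible because each group had 1 library. The share of C1q high macrophages depended on the processing, and the causes were not tested. With barcodes under 2000 UMIs left out and the rest thinned, its ratio was 0.743 for ADU-S100, 0.887 for anti-LTβR and 1.14 for the combination against untreated, the last turned in direction, and 1.53 and 1.28 for the combination against ADU-S100 and anti-LTβR. Without members carrying other-cell markers the same 5 ratios were 0.740, 0.719, 0.656, 0.887 (turned) and 0.913, the last from 1.04. With neutrophils out of the denominator they were 0.987 for ADU-S100 and 0.899 (turned) for the combination against ADU-S100. A limit of 20 UMIs per 10000 gave 0.784 for anti-LTβR. Genes past the fold, in the order ADU-S100, anti-LTβR and combination against untreated, then combination against ADU-S100 and anti-LTβR, numbered 517, 220, 342, 423 and 187 with members under 2000 UMIs left out and the rest thinned, 1800, 960, 1174, 1557 and 745 with at least 50 UMIs, and 254, 133, 193, 271 and 87 at 2-fold. Without other-cell marker carriers they were 237 for anti-LTβR and 355 for the combination. With members under 2000 UMIs left out and the rest thinned, 335 of 947, 145 of 393, 241 of 587, 323 of 790 and 108 of 299 were called again, in the same order. The MHC class II and class I medians with ADU-S100 turned to 0.041 and 0.050 after centring on all genes, and the interferon γ median of the combination against ADU-S100 to 0.013 after that thinning. Of the 947 genes called with ADU-S100, 605 were called again without other-cell marker carriers and 3 changed sign, none of them named or in a list. For anti-LTβR it was 180 of 393, for the combination 280 of 587, and for the combination 435 of 790 against ADU-S100 and 114 of 299 against anti-LTβR. Depth limits the combination library most, where members had a median of 27 C1q UMIs.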
